A study of Rattus norvegicus with 5 samples.

Results

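Fibroblast growth factors (FGFs) and their receptors were followed in rat granule cells, small cerebellar neurons that use glutamate, kept in culture. The set is 9 genes: the secreted ligands Fgf1, Fgf2 and Fgf9, the intracellular FGFs Fgf11, Fgf12, Fgf13 and Fgf14, and the receptors Fgfr1 and Fgfr2. Its members are all probes that the array annotation assigns to these symbols, which gave 20 of 31042 Affymetrix probe sets and 8 of 20500 two-colour probes. The 9 genes are among 14217 named on the Affymetrix arrays. The cells came from Wistar rats 8 days after birth and were grown with 10% fetal calf serum and 25 mM KCl. They were harvested at day 1 (D1) or day 5 (D5), and a last group, harvested at day 5 too, received 10 µM ICRF-193 daily (D5+). ICRF-193 is an inhibitor of topoisomerase II that also depletes the topo IIβ protein. All cultures received 10 µM cytosine arabinoside, which suppresses dividing cells such as glia, so D1 cells had met it for a shorter time than the others. Each condition was hybridized to 1 Affymetrix array. A two-colour array set D5 against D1 and another set D5 against D5+, with D5 in the Cy5 channel of both. There were no replicates, so no test was run and precision is limited by the number of arrays.

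Secreted FGFs bind receptor tyrosine kinases at the cell surface together with heparan sulfate, and the receptors signal through adaptor proteins to the Ras-MAP kinase cascade. The intracellular FGFs share the fold of the secreted ones but are not exported. They bind the cytoplasmic tail of voltage-gated sodium channels and tune their gating, and loss of Fgf14 causes ataxia in mice and humans. In the cerebellum, FGF signalling takes part in early patterning and in the growth of glia and granule cell precursors, while the intracellular FGFs are known from the axon initial segment of mature neurons.

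Promoters of the intracellular FGFs Fgf12, Fgf13 and Fgf14 are shown because 2 of these genes, Fgf13 and Fgf14, were past 2-fold lower with ICRF-193, while Fgf12 was not. In the brightest probe set, each had its highest signal at D5. Fgf1, a secreted ligand that was also called lower with ICRF-193, is not shown. The windows run from 250 bases before to 50 bases after a RefSeq transcript start on the GRCr8 build, and the start used by the cells was not measured. They lie at chrX:142423487-142423786 (minus strand) for Fgf13, at chr15:108086363-108086662 (minus strand) for the upstream and chr15:107680696-107680995 (minus strand) for the downstream start of Fgf14, and at chr11:85501697-85501996 (plus strand) for the upstream start of Fgf12. Capitals mark the GC box, GGGCGG, or its complement CCGCCC on the other strand.
Fgf13: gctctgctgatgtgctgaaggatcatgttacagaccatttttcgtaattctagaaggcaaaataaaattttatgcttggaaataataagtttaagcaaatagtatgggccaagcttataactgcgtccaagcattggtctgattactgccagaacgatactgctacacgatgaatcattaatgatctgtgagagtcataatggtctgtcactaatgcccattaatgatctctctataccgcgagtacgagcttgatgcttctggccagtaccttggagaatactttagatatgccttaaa
Fgf14 upstream start: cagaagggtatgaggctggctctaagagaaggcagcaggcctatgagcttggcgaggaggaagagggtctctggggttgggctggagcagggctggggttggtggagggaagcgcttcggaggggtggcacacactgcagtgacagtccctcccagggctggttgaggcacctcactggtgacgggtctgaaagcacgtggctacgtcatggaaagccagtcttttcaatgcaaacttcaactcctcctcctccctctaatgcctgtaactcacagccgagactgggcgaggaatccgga
Fgf14 downstream start: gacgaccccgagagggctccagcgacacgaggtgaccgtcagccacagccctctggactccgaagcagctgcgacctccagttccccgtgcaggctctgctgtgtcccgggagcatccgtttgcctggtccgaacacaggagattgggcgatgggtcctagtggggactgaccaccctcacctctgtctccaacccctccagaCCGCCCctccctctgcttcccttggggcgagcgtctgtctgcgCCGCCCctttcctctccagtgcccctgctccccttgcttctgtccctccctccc
Fgf12 upstream start: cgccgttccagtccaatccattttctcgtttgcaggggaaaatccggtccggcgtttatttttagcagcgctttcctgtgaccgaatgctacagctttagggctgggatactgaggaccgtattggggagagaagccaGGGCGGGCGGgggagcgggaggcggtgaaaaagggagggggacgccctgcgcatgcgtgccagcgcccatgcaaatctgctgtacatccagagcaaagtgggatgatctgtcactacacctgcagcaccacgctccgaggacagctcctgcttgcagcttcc

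Fgf13 had the promoter with the fewest G and C bases of these, 39.0%, against a median of 51.7% over 33469 RefSeq promoters of the same length. The Fgf14 windows held 59.0% (upstream) and 66.3% (downstream), and the upstream Fgf12 window 58.7%. Not shown are the windows of the downstream Fgf12 start (58.3%, with 0 GC boxes), of Fgf11 (65.0%, with 1), of Fgf1 (48.3%, with 1) and of the remaining members. A GC box was found in 5 of the 10 windows of 8 member genes that the RefSeq table holds, and in 33.1% of all windows. The TATA box TATAAA (either strand, in 14.2% of all windows) and the cyclic AMP response element TGACGTCA (in 1.83%) were in 0 of the 10. A match is a description of the letters only.

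A probe set was read as measured on an array where its signal reached the 40th percentile of that array, 19.2 (D1), 16.7 (D5) and 16.3 (D5+). This floor stands in for detection calls, which were not used here. Of the 20 probe sets, 14 reached the floor on at least 1 array, 10 did so on all 3, and 6 on none. Of the 9 genes, 7 had a probe set above the floor, and Fgf2 and Fgf11 had none. Counts of genes use, for each gene, the brightest probe set by mean log2 signal. Levels are not compared between genes, since signals of different probe sets have different scales.

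Markers of granule cells were present on every array, with 10, 10 and 11 of 11 above the floor on D1, D5 and D5+. They summed to 9935 (D1), 7892 (D5) and 7794 (D5+), with mixed directions. Of the 9 above the floor on both D1 and D5, 2 were past 2-fold higher at D5 and 3 lower (6.52% and 9.49% of all such genes). Gabra6 had 84.5 on D1 and 962.7 on D5, whereas Neurod1 had 5653.8 and 3072.2, and the neuronal marker Rbfox3 had 501.4 and 78.8. Markers of other cells moved beside the FGF genes. The summed signal of 10 astrocyte markers was 4512 (D1), 6176 (D5) and 3289 (D5+), highest on D5 and lowest on D5+ as for Fgf13. Of the 8 measured on D5 or D5+, 4 were past 2-fold lower with ICRF-193, namely Gfap, Aqp4, Slc1a3 and Aldh1l1, beside 5.91% of all genes. S100b (339.3 on D5 and 512.9 on D5+), Hopx (277.0 and 403.0) and Gja1 (921.2 and 1062.8) were higher on D5+, by less than 2-fold. The two-colour D5/D5+ log ratios were 2.29 for Gfap, 2.32 for Slc1a3 and 0.25 for Aqp4, but -0.20 for Aldh1l1, the other direction. Slc1a2 was under the floor on all arrays. Markers of interneurons and Purkinje cells summed to 1171, 1446 and 957, and the 8 microglia markers, all above the floor, to 773, 1041 and 758, again highest on D5 and lowest on D5+. The interneuron and Purkinje markers were mixed, with Sst at 577.5 on D5 and 134.6 on D5+ but Gad2 at 31.2 and 86.1. Of the 7 above the floor on both arrays, 1 was past 2-fold higher with ICRF-193 and 1 lower (1.45% and 3.80% of all such genes). Markers of the oligodendrocyte lineage ran the other way, with sums of 2732 (D1), 1804 (D5) and 2734 (D5+). Markers of granule cell precursors summed to 2946, 865 and 707, with 5 of 5 expressed past 2-fold lower at D5 than at D1, beside 11.8% of all genes. The 10 markers of fibroblast, meningeal and mural cells summed to 552 (D1), 2462 (D5) and 5913 (D5+), and 2, Tbx18 and Foxc1, were under the floor throughout. Fgfr1 was likewise lowest on D1 but not higher on D5+ than on D5. The part of other cells in the values of the FGF genes was not tested.

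**Figure D1:**
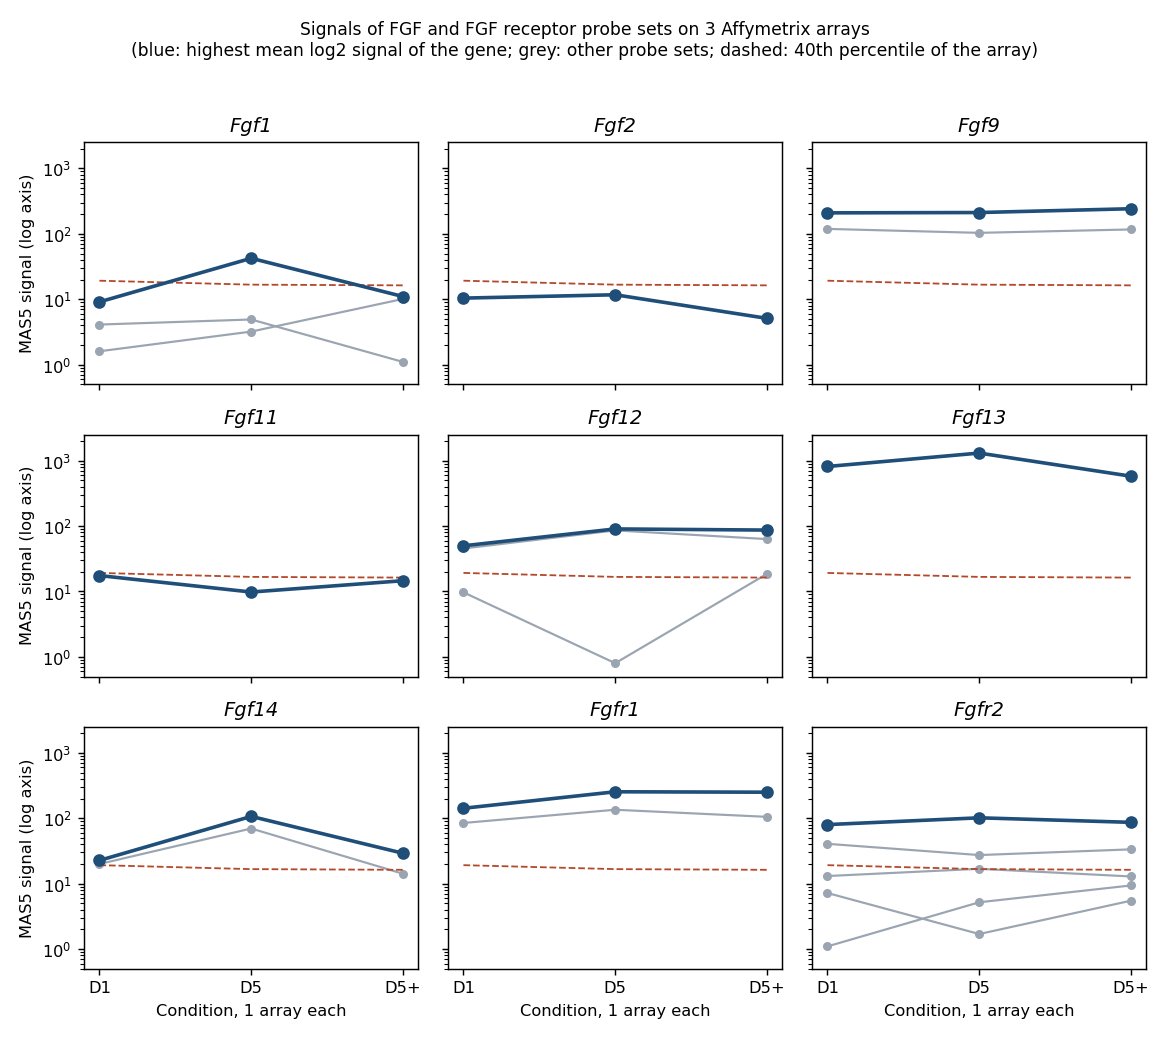
MAS5 signals (log axis) of all 20 probe sets on the D1, D5 and D5+ arrays, 1 panel a gene. Blue marks the brightest probe set of a gene by mean log2 signal, grey the others, and the dashed line the floor of each array. Fgf13 and both probe sets of Fgf14 peak on D5, whereas both Fgf9 probe sets stay level.

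Among the intracellular FGFs with signals above the floor on all arrays, Fgf14 differed most between D5 and the others. The first probe set of Fgf14 had signals of 22.7 (D1), 106.9 (D5) and 29.2 (D5+). Its D5 signal was thus 4.71-fold that of D1 and 3.66-fold that of D5+, and D5+ stood 1.29-fold above D1. With an offset equal to the floor, which damps ratios of dim signals, the log2 D5/D1 was 1.56 in place of 2.24, and the log2 D5+/D5 -1.44 in place of -1.87. The second probe set had 20 (D1), 69.8 (D5) and 14.2 (D5+). Here D5 was 3.49-fold higher than D1 and at least 4.28-fold higher than D5+, whose signal lies under the floor. Both probe sets therefore showed a high D5 array between a low D1 and a low D5+ array. The log2 D5/D1 of 2.24 was above that of 97.6% of expressed genes, and the log2 D5+/D5 of -1.87 was above that of only 1.59%. With no replicate arrays, the one measure of error is the SD of log2 ratios between probe sets of the same gene. At mean signals of 50 to 200 over the 3 arrays it was 0.30 (D5/D1) and 0.27 (D5+/D5). At 20 to 50, where the D1 and D5+ signals of the first probe set lie, it was 0.40 and 0.38. This SD holds real differences between transcripts of a gene and leaves out variation between cultures. A change in the cells present and a change in RNA per cell cannot be told apart in these bulk samples. Fgf14 had no probe on the two-colour arrays.

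Fgf13, which also binds microtubules in developing mouse neurons, was measured by 1 probe set with signals of 814.3 (D1), 1306.0 (D5) and 578.3 (D5+). The D5 signal was 1.60-fold that of D1 and 2.26-fold that of D5+, so that D5+ lay below D1 as well, by 1.41-fold. Between probe sets of the same gene the SD was 0.23 (log2 D5/D1) and 0.17 (log2 D5+/D5) at mean signals of 200 to 1000 over the 3 arrays, against 0.68 and -1.18 for Fgf13. The two-colour probe of Fgf13 gave log ratios of 0.77 for D5/D1 and 1.01 for D5/D5+, a higher D5 in both. The base of these logs is not given in the sources used here. Read as log2, the ratios are 1.70-fold and 2.02-fold, and read as natural logs 2.15-fold and 2.76-fold. Among two-colour genes they were above 94.6% (D5/D1) and 99.1% (D5/D5+).

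Fgf12, variants of which cause epilepsy in humans, was higher on both day 5 arrays than on D1. Its first probe set had signals of 49.9 (D1), 90.4 (D5) and 86.8 (D5+), and its second had 45.4 (D1), 85.8 (D5) and 63.2 (D5+). D5 was 1.81-fold and 1.89-fold higher than D1 in these, short of 2-fold as deposited. With each array divided by its median, which moves the median of all genes from -0.21 to -0.03 for log2 D5/D1, Fgf12 was past 2-fold (log2 of 1.03). D5 exceeded D5+ by 1.04-fold and 1.36-fold only. The two-colour log ratios of Fgf12 were 0.57 for D5/D1 and 0.21 for D5/D5+, above 91.8% and 85.2% of genes. The remaining probe set behaved otherwise, with 9.7 (D1), 0.8 (D5) and 18.6 (D5+), and only its D5+ signal reached the floor.

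Fgf11 belongs to the same intracellular family. Its probe set had 17.5 (D1), 9.8 (D5) and 14.6 (D5+), all under the floor, so no ratio is quoted. On the two-colour arrays its log ratios were -0.41 for D5/D1 and -0.27 for D5/D5+, lower at D5 in both and above only 7.16% and 11.5% of genes. Of the intracellular FGFs on those arrays, Fgf11 alone had a D5 value below that of D1.

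Of the secreted ligands, Fgf9 stayed level, while Fgf1 and Fgf2 were under the floor on all arrays but D5 for Fgf1. Fgf9, a ligand needed in mice for lung, testis and cerebellar development, had signals of 209.2 (D1), 211.6 (D5) and 241.9 (D5+). Its other probe set had 118.9 (D1), 103.5 (D5) and 116.7 (D5+). No pair of conditions differed by more than 1.16-fold in either probe set. Fgf9 had no probe on the two-colour arrays.

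Fgf1, a ligand for all FGF receptors that is exported without a signal peptide, had 3 probe sets that did not match each other. One had 9.1 (D1), 42.3 (D5) and 11.0 (D5+), with D5 at least 2.20-fold above D1 and at least 2.60-fold above D5+. The others stayed under the floor on every array, with 1.6, 3.2 and 10.1 in one and 4.1, 4.9 and 1.1 in the other, in the order D1, D5, D5+. On the two-colour arrays the log ratios of Fgf1 were 0.04 for D5/D1 and 0.16 for D5/D5+. The high D5 value of Fgf1 thus rests on 1 probe set on 1 array.

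Fgf2, a mitogen of neural precursors, had 10.4 (D1), 11.7 (D5) and 5.1 (D5+), all under the floor. Its two-colour log ratios were 0.21 for D5/D1 and 0.18 for D5/D5+. These lay above 75.7% and 82.3% of genes.

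**Figure D2:**
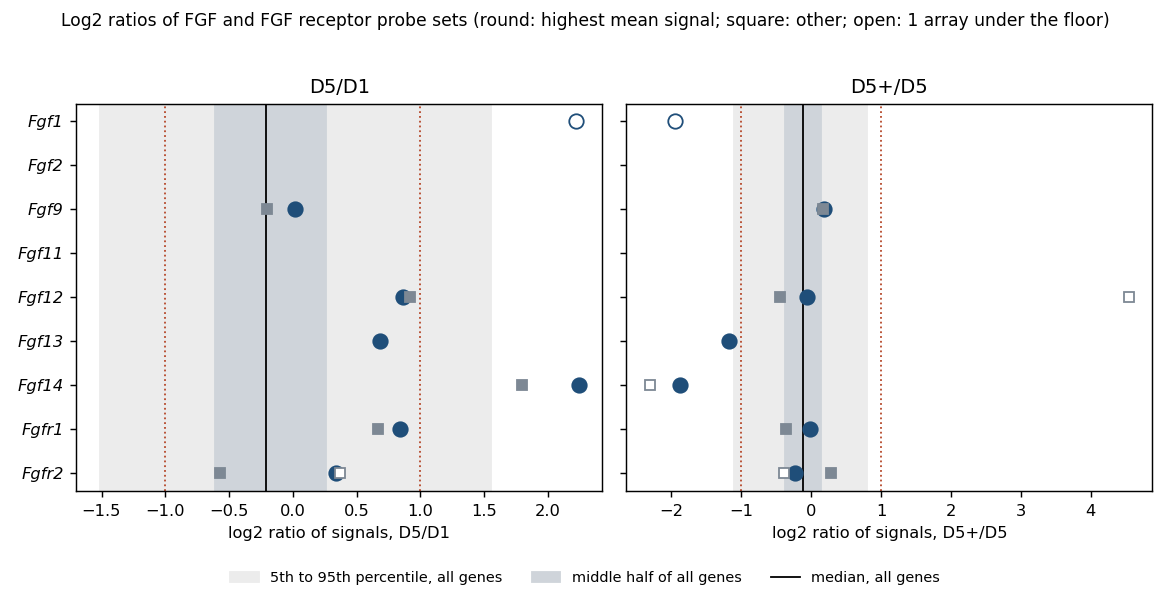
Log2 ratios D5/D1 (left) and D5+/D5 (right) of member probe sets above the floor on at least 1 array of the pair. Round points are the brightest probe set of a gene, squares the others, and open symbols have 1 array under the floor. The light band spans the 5th to 95th percentile of all expressed genes, the dark band the 25th to 75th, the black line is the median, and dotted lines mark 2-fold. Fgf14 and Fgf1 stand right of 2-fold at left, and Fgf1, Fgf13 and Fgf14 stand left of it at right.

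Of the receptors, Fgfr1 was higher at day 5 than at day 1 with and without the inhibitor. One probe set had signals of 142.3 (D1), 254.3 (D5) and 250.6 (D5+), and the other had 84.8 (D1), 135.1 (D5) and 105.2 (D5+). D5 was 1.79-fold and 1.59-fold higher than D1 in these, and D5+ was 1.76-fold and 1.24-fold higher than D1. With each array divided by its median, the first was past 2-fold for D5/D1 (log2 of 1.01) and for D5+/D1 (log2 of 1.05). The platforms differed on the inhibitor. D5 over D5+ was 1.01-fold and 1.28-fold by the Affymetrix probe sets, while the two-colour log ratio D5/D5+ of Fgfr1 was 0.56, above 97.0% of genes. For D5/D1 the two-colour log ratio was 0.63, above 92.9% of genes.

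Fgfr2, whose splice forms differ in the ligands they bind, had 5 probe sets, of which 2 were above the floor on all arrays. These had 80.1 (D1), 101.7 (D5) and 86.7 (D5+) in one, and 40.7 (D1), 27.4 (D5) and 33.5 (D5+) in the other. One was therefore highest and the other lowest on D5, with log2 D5/D1 of 0.34 and -0.57. Another reached the floor on D5 only (13.1, 16.9 and 12.9 in the order D1, D5, D5+), and the remaining pair on no array. The 2 two-colour probes of Fgfr2 gave D5/D1 log ratios of -0.12 and -0.20. For D5/D5+ they gave 0.12 and -0.53, while the Affymetrix probe sets above the floor on all arrays gave log2 D5+/D5 of -0.23 and 0.29. The direction of Fgfr2 with the inhibitor was thus not settled on either platform, and that of D5/D1 not on the Affymetrix arrays.

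Counted by genes, 2 of the 7 expressed members were past 2-fold higher at D5 than at D1, Fgf14 and Fgf1, and 0 were lower. Over all 10654 expressed genes, 9.27% were higher and 11.8% lower by the same rule. With ICRF-193, 3 of 7 members were past 2-fold lower than D5, namely Fgf1, Fgf13 and Fgf14, and 0 were higher, where 5.91% of 10550 genes were lower and 3.18% higher. Fgf1 passed the floor only through its high D5 value, so its call adds no support. Without it, on genes above the floor on both arrays, 1 of 6 was higher at D5 (6.52% of all such genes) and 0 lower (9.49%), while with ICRF-193 0 were higher (1.45%) and 2 of 6 lower (3.80%). The median log2 D5/D1 of the 7 members was 0.84 against -0.21 over all genes, and the median log2 D5+/D5 was -0.23 against -0.12. Both medians include Fgf1, which entered only through its D5 value, so neither is read as a shift of the members. Both comparisons share the D5 array, and the values of each are given side by side. Between D5+ and D1, 0 of 6 expressed members were past 2-fold higher and 0 lower, against 7.77% and 14.7% of genes, or 4.98% and 11.8% of those above the floor on both arrays. Counted by probe sets, 3 of 13 were higher at D5 than at D1 (9.10% of all probe sets) and 0 lower (13.3%). The 3 were that of Fgf1, above the floor on D5 only, and both of Fgf14. With ICRF-193, 1 of 14 was higher than D5 (3.98%) and 4 were lower (6.51%). The 4 lower were these 3 and Fgf13, and those of Fgf1 and the second of Fgf14 were under the floor on D5+. These counts repeat genes, so they add no support to the counts by genes. The higher one was the dimmest of Fgf12, at least 1.11-fold against the floor, so a 2-fold difference is not shown. Between D5+ and D1, 0 of 12 were higher (7.61%) and 0 lower (15.5%). By the groups of the methods, Fgf14 and the brightest probe set of Fgf1 were in A1 (higher at D5, lower with the inhibitor) and Fgf13 in B1 (less than 2-fold between D1 and D5, lower with the inhibitor). Fgf9, Fgf12, Fgfr1 and Fgfr2 were in B2, past 2-fold in neither, and Fgf2 and Fgf11, under the floor, were in D (unexpressed).

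**Figure D3:**
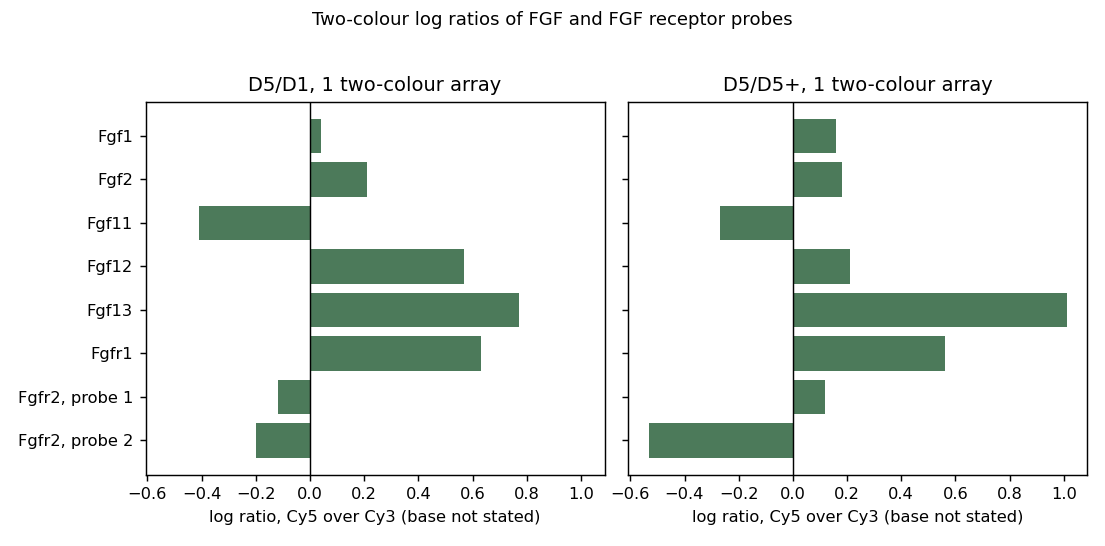
Two-colour log ratios of the 8 member probes, D5/D1 (left) and D5/D5+ (right), 1 array each. Bars start at 0, and the base of the logs is not stated. Fgf13 reaches 0.77 and 1.01, Fgfr1 0.63 and 0.56, and the Fgfr2 probes point to opposite sides at right.

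On the two-colour arrays, 5 of 7 member genes had a D5/D1 log ratio above 0, where 51.8% of 9635 genes did. For D5/D5+ it was again 5 of 7, where 51.0% of 9623 genes did. The channel of each sample was taken from the labels. Across 6968 genes, which are not independent replicates, the two-colour D5/D1 ratio had a Pearson's r of 0.59 with the Affymetrix log2 ratio, and across 6915 genes the D5/D5+ ratio had 0.49. The sources used here do not state if the RNA on each platform came from shared cultures.

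The genes with the most similar pattern were sought among those above the floor on all arrays with a mean log2 signal within 1 of the member, by the distance in log2 D5/D1 and log2 D5+/D5 over 3 arrays. For Fgf13, 1170 genes were compared. The nearest was Cadps, which encodes a protein of dense-core vesicle release, with signals of 873.8 (D1), 1286.8 (D5) and 535.5 (D5+) (distance 0.152). Next came Mat2b (0.169) and Oxr1 (0.193). Cadps had two-colour log ratios of 1.09 for D5/D1 and 1.26 for D5/D5+, and Oxr1 had 1.42 and 1.29, with D5 the higher in each. For Fgf14 the nearest of 3100 genes were Trim72 (distance 0.183), Il4r (0.387) and Cpne8 (0.391). Cpne8, a calcium-binding copine, had 41.6 (D1), 150.0 (D5) and 43.0 (D5+). Its two-colour log ratios were 1.47 and 1.59, while those of Il4r were -0.01 and -0.09. Fgfr1 was nearest to Asah1 (0.0183), Nr1d2 (0.0338) and Clu (0.0341) among 4020 genes, Fgf12 to Plpp7, Tmem238 and Sh3bp4 (distances of 0.0112 to 0.0463 among 4230), Fgf9 to Clk3, Spns1 and C19h16orf87 (0.0115 to 0.0283 among 3909) and Fgfr2 to Bcan, Ndufb8 and Aurkc (0.0133 to 0.0222 among 4400). Asah1 and Clu had two-colour log ratios D5/D5+ of 0.04 and -0.08, unlike the 0.56 of Fgfr1.

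Around these members, the other FGF ligands gave little signal. Of 14 further ligands with a named probe set, 13 were under the floor on all arrays, and Fgf10 reached it on D5 only, with signals of 5.2 (D1), 20.3 (D5) and 13.2 (D5+). Against the floor of D1 this D5 signal was at least 1.06-fold higher. Of the other receptors and co-receptors, 5 of 7 were expressed. Flrt1, which binds FGF receptors and adhesion partners, was measured at 27.5 (D1), 76.2 (D5) and 99.7 (D5+). It was the 1 gene of 5 past 2-fold higher at D5, with 0 lower, beside 9.27% and 11.8% of all genes. Flrt2 had 56.9 (D1), 29.2 (D5) and 60.8 (D5+). It was the 1 gene of 5 past 2-fold higher with ICRF-193, with 0 lower, beside 3.18% and 5.91% of all genes. Fgfr3, the receptor most typical of astrocytes, had 26.5 (D1), 42.8 (D5) and 79.2 (D5+). Its D5+ signal was past 2-fold above D1 and 1.85-fold above D5, whereas its two-colour log ratio D5/D5+ was 0.00. For D5/D1 its Affymetrix log2 ratio was 0.69 and its two-colour log ratio -0.14. Flrt3 had 195.7 (D1), 164.0 (D5) and 107.7 (D5+).

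Of 12 expressed adaptors and members of the Ras-MAP kinase cascade, 0 were higher and 2 lower at D5 than at D1, where 9.27% and 11.8% of all genes were. With ICRF-193, 0 were past 2-fold in either direction, beside 3.18% and 5.91%. The lower ones were the receptor-bound phospholipase Plcg1 at 611.4 (D1), 177.5 (D5) and 232.4 (D5+), and the docking protein Gab1 at 1005.3 (D1), 323.2 (D5) and 505.7 (D5+). Two-colour log ratios D5/D1 were below 0 for both, at -0.62 for Plcg1 and -0.44 for Gab1. The other named members of this list differed less, with a D5/D1 fold of 1.75 (Nras, lower at D5) and D5+/D5 folds of 1.57 (Frs3, lower) and 1.45 (Shc1, higher). Of 14 expressed feedback inhibitors and transcriptional targets, 13 were above the floor on both D1 and D5, and 0 of them were past 2-fold. Of all such genes, 6.52% were higher at D5 and 9.49% lower. On both D5 and D5+ it was 12, and 0 were past 2-fold, beside 1.45% higher and 3.80% lower of all such genes. The phosphatase Dusp4, with 31.0 (D1), 1.5 (D5) and 24.9 (D5+), and the transcription factor Etv4, with 23.0 (D1), 19.6 (D5) and 8.0 (D5+), passed it only by signals under the floor. Against the floor, Dusp4 was at least 1.86-fold higher on D1 than on D5 and at least 1.49-fold higher on D5+ than on D5, and Etv4 at least 1.2-fold higher on D5 than on D5+. Spry4, an inhibitor of receptor tyrosine kinase signalling, had 62.0 (D1), 112.6 (D5) and 92.1 (D5+), and the transcription factor Etv1 had 169.0, 314.0 and 469.2 in the same order. Dusp5, a phosphatase of ERK, had 215.9 (D1), 116.2 (D5) and 187.8 (D5+), with two-colour log ratios of -0.32 for D5/D1 and -0.40 for D5/D5+. Etv5, another factor of that family, had 48.1 (D1), 56.5 (D5) and 30.2 (D5+). The 14 feedback genes and targets had a median log2 ratio of 0.26 between D5 and D1, beside -0.21 over all genes. With ICRF-193 the list's median was -0.15, beside -0.12.

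**Figure D4:**
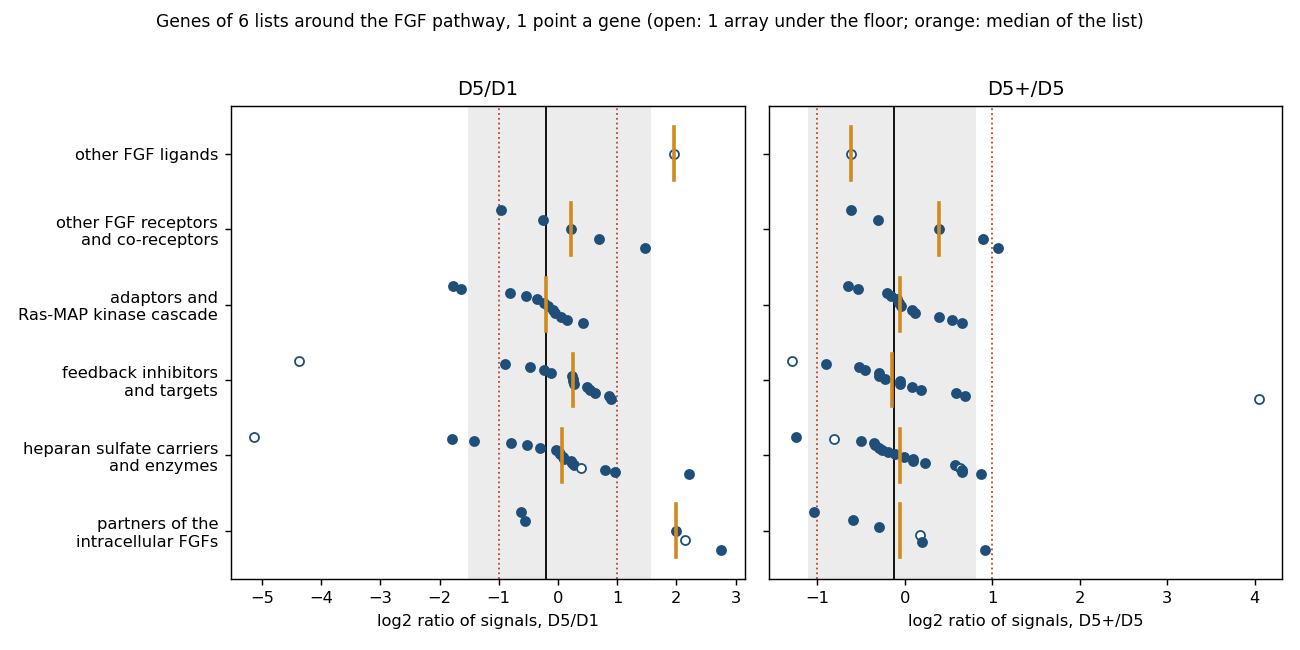
Log2 ratios D5/D1 (left) and D5+/D5 (right) of expressed genes in 6 lists around the FGF pathway, 1 point a gene, open where 1 array was under the floor. The grey band spans the 5th to 95th percentile of all genes, the black line is their median, orange lines are medians of lists, and dotted lines mark 2-fold. The list of partners of the intracellular FGFs, beta subunits of sodium channels included, has a median of 1.99 over 5 genes at left and -0.06 over 6 genes at right. The former was 1.14 over 8 genes with the floor at the 20th percentile and 0.29 over 9 genes with none.

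Heparan sulfate, the sugar chain that holds FGFs to their receptors, was represented by 18 expressed carriers and enzymes. At D5, 1 was higher and 3 were lower than at D1, beside 9.27% and 11.8% of all genes. The higher one was Sulf1, which removes sulfates that FGF binding needs, with 22.8 (D1), 105.7 (D5) and 104.9 (D5+). The lower ones were the proteoglycans Sdc3 (277.5, 80.1 and 146.1 in the order D1, D5, D5+), Gpc3 (56.9, 21.2 and 12.1) and Gpc2 (452.7, 12.9 and 19.9), the last at least 27.1-fold higher on D1 than on D5. Two-colour D5/D1 log ratios were 0.44 for Sulf1, -1.59 for Sdc3, -0.56 for Gpc3 and -0.19 for Gpc2. With ICRF-193 the glypican Gpc6 was the 1 lower gene of 18 (55.2 on D5 and 23.4 on D5+), and 0 were higher, beside 5.91% and 3.18% of all genes. Sulf2, the relative of Sulf1, had 167.1 (D1), 162.7 (D5) and 255.8 (D5+).

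Sodium channel subunits were listed as partners of the intracellular FGFs. The list also holds beta subunits such as Scn2b, which are not the channels whose tail these FGFs bind. Of 5 expressed genes, 3 were past 2-fold higher at D5 than at D1 and 0 were lower, beside 9.27% and 11.8% of all genes. One of them, Scn1a, passed the floor only through D5. On genes above the floor on both arrays, 2 of 4 were higher, Scn2a and the beta subunit Scn2b, beside 6.52% of all such genes. The list's median log2 D5/D1 over these 4 was 0.72. Scn2a had 34.8 (D1), 235.0 (D5) and 156.5 (D5+), and Scn2b had 25.7, 102.4 and 83.5. Scn1a had 18.0 on D1, under the floor, 79.1 on D5 and 38.5 on D5+, so that D5 was at least 4.12-fold above D1. Only Scn1a of 6 was past 2-fold lower with ICRF-193, beside 5.91% of all genes. The two-colour D5/D1 log ratios were 1.60 for Scn2a and 0.89 for Scn1a, but -0.04 for Scn2b. Scn3a, an early sodium channel, ran the other way with 36.3 (D1), 23.5 (D5) and 44.4 (D5+), and two-colour log ratios of -0.51 for D5/D1 and -1.30 for D5/D5+.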

How the data were processed

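RNA of 3 culture conditions was read on Rat Genome 230 2.0 arrays, whose deposited values are linear MAS5 signal intensities, made by the authors with GCOS. Although the methods name a median normalization, array medians were 32.9 (D1), 29.2 (D5) and 28.0 (D5+), and no further scaling was applied. For the two-colour arrays the authors deposited log ratios, whose base and preprocessing the sources used here do not give. They were not read as log10, under which the highest value would be 14791-fold. Symbols came from the platform annotation, updated through gene IDs of GRCr8, with 20826 probe sets carrying 1 symbol, 436 several and 9780 none. In Python 3.11.15, genes were counted past 2-fold by log2 ratio where at least 1 array of the pair reached the floor. A fold with 1 array under the floor is a bound against that floor. The counting step was tested on simulated data in which bright genes were given changes well past 2-fold. That test does not cover dim signals such as those of Fgf1 and Fgf14, or changes near 2-fold such as that of Fgf13. The members and gene lists were chosen with earlier results of these data known. The rule names all members, from each list up to 3 genes a contrast with the largest change among those above the floor on both arrays, and for each member up to 3 genes of nearest pattern. Dusp4, Etv4, Fgf10, Gpc2, Neurod1, Aldh1l1, Hopx and the markers under the floor were named after their values were seen. Alternatives were other floors, folds, scalings and gene values, and an added offset.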

Additional observations from a re-analysis of the deposited data

How the results depend on the processing

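The counts of members past 2-fold were small, and a change of 1 gene moves them. For D5 over D1, 2 members were higher as deposited. This count was 1 (Fgf14) with the floor at the 60th percentile and 1 where both arrays had to reach the floor, an alternative chosen after seeing the data. It was 5 with a 1.5-fold threshold. It was 4 with each array divided by its median over all probe sets, and 4 by its median over probe sets above the floor, Fgf12 and Fgfr1 being added. The 3 members lower with ICRF-193 numbered 2 to 4 over the settings, Fgf14 among them in each count of genes. The share of all genes lower ran from 2.32% (3-fold) to 14.2% (1.5-fold), beside 5.91% as deposited. Probe sets in place of genes gave 1 higher with ICRF-193, the dimmest probe set of Fgf12. For D5+ over D1, 0 members were higher as deposited. There were 2, Fgf12 and Fgfr1, at 1.5-fold, under both median scalings and under quantile normalization. The 1 lower member there, with the floor at the 20th percentile or with none, was Fgf2. Of 100 log2 ratios of single members under other settings, 88 moved by less than the SD between probe sets of a gene and 12 by more. A reversal meant a change of sign in a ratio past 2-fold, and there were 0. Scalings and an offset of this size could hardly turn such a ratio, so this 0 adds no support. With the floor value added, log2 D5/D1 was 1.56 for Fgf14 and 1.06 for Fgf1. Of 1163 counts and medians of the gene lists under other settings, 182 moved. No paired analysis was possible because each condition has 1 array. Depth is not a property of these arrays; signals near the floor have no settled order.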
